A study of Mus musculus with 6 samples.

Results

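The genes described here are 36 that carry glucose to lactate or into the mitochondrion: the glucose transporters, the enzymes of glycolysis with their isoforms, the exporters of lactate, the mitochondrial pyruvate carrier, pyruvate dehydrogenase and the kinases that switch it off. They were taken by gene symbol from a deposited table of 55487 genes. Aldoa was the 1 symbol with 2 identifiers, and the identifier with the larger total was used, since the other held 45 counts in all. The table holds RNA sequencing of whole mouse aorta in 6 libraries. In 3 of them, titled SM22-Ctrl, the mice carried a floxed Ogt gene (genotype label LoxP), and in the 3 titled SM22-∆Ogt the gene had been deleted in smooth muscle cells. Ogt encodes O-GlcNAc transferase, which places single N-acetylglucosamine units on nuclear and cytoplasmic proteins, and SM22 is another name for Tagln, a smooth muscle gene whose promoter is widely used to drive Cre. The labels give neither the promoter in words, nor age, nor sex, nor how many mice went into a library. Whole aorta also holds cells other than smooth muscle, and Ogt was not measured by cell type. The labels do not say that the libraries came from separate mice, so p-values measure the spread between these libraries, which may be in part technical.

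Glycolysis splits glucose into pyruvate in the cytosol and yields ATP without oxygen. Pyruvate is then either reduced to lactate by lactate dehydrogenase and exported through monocarboxylate transporters, or carried into mitochondria and oxidised by pyruvate dehydrogenase, which pyruvate dehydrogenase kinases inhibit by phosphorylation. Arterial smooth muscle is known for making much lactate even when oxygen is plentiful.

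Ogt was lower in every knockout library. Its level was 177.4, 183.2 and 150 CPM (the count relative to the scaled library size) in control replicates 1 to 3 and 93.3, 73.5 and 70.9 CPM in knockout replicates 1 to 3 (log2 fold change -1.10 ± 0.15, SE; adjusted p = 0.0214). Here and below the adjusted p is from edgeR's quasi-likelihood test, adjusted by Benjamini-Hochberg over the 16139 genes tested, the threshold is 0.05, fold changes are knockout against control, and means are given with SD and n = 3. Library totals ran from 3038782 counts in control replicate 2 to 18218385 in knockout replicate 3. Control replicate 2 stood apart: 10.2% of its counts were mitochondrial ribosomal RNA (0.491% to 0.823% in the others) and 77.2% came from protein-coding genes (93.2% to 94.2% in the others). The smooth muscle markers Acta2 (log2 fold change -0.04, adjusted p = 0.907) and Myh11 (-0.32, adjusted p = 0.275) were the most abundant of the marker genes looked at, and of the 8 smooth muscle markers only Tagln passed with edgeR (it fell from 5553 ± 1140 to 2526 ± 297 CPM, adjusted p = 0.0331), and DESeq2 also called Des, which was higher. In whole tissue, fewer cells of a type and less RNA per cell cannot be told apart.

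Of the 36 genes, 35 had enough counts to be tested, and 3 passed the threshold. The lactate exporter gene Slc16a3 and the phosphoglycerate mutase gene Pgam1 rose, and the lactate dehydrogenase gene Ldhb fell. That is 8.57% of those tested, beside 3.45% of all genes (557 of 16139). In the 35 genes 2 rose and 1 fell, beside 1.9% and 1.56% of all genes. An unadjusted p below 0.05 was found for 10 of the 35 (28.6%), beside 22.7% of all genes. The 3 knockout libraries lay wholly above or wholly below the 3 controls for 10 of the 35 (28.6%), beside 31.8% of all genes. The log2 fold changes of the 35 ran from -0.92 to 1.28 with a median of -0.01, the same as the median of all genes, and 17 were positive and 18 negative. The plot of fold changes in pathway order shows the 3 called genes at separate steps.

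**Figure D1:**
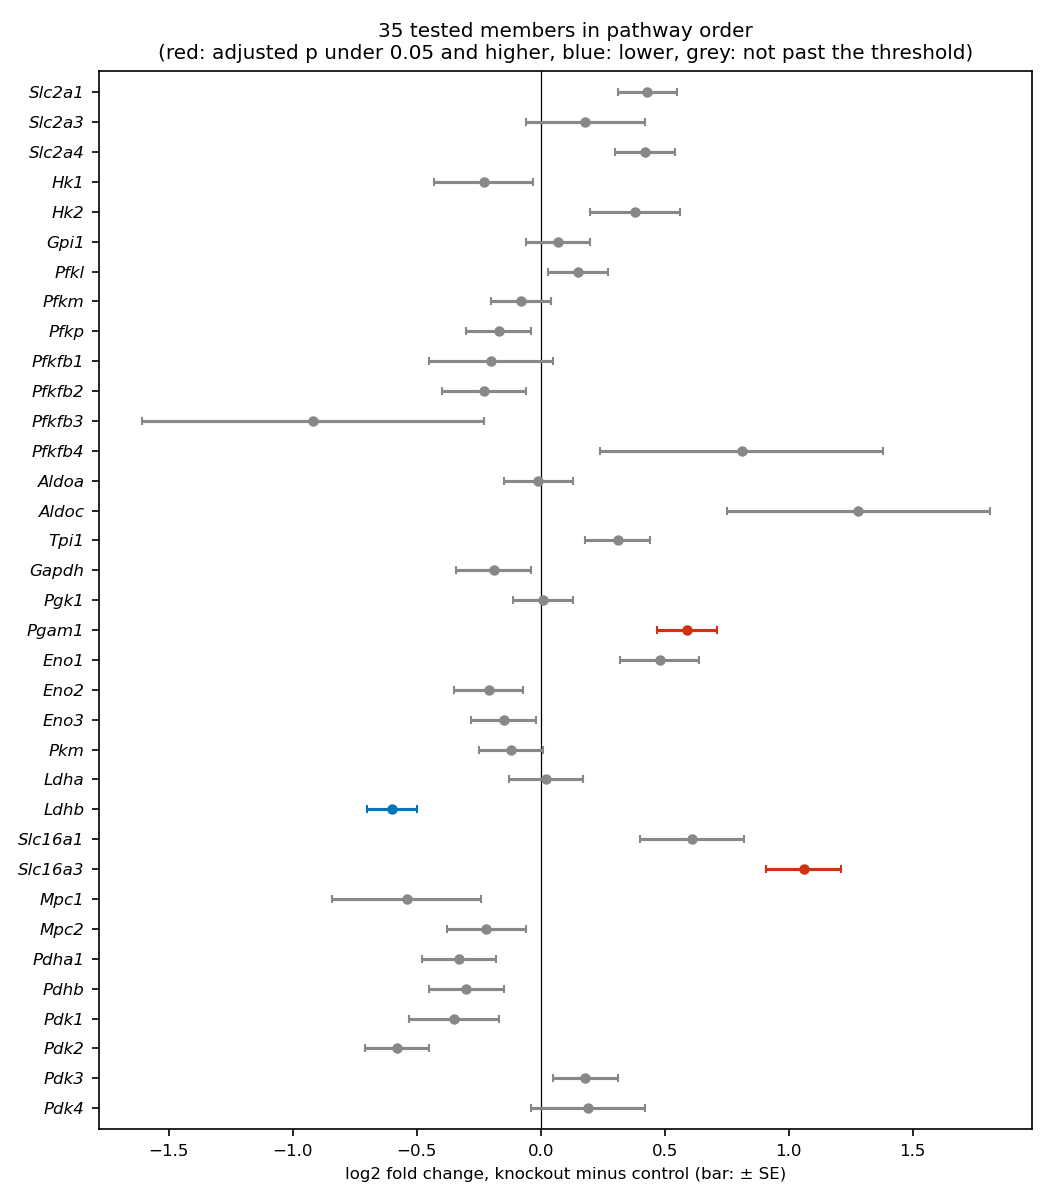
Log2 fold change (knockout minus control, horizontal axis) of the 35 tested genes, ordered from glucose uptake at the top to the pyruvate dehydrogenase kinases at the bottom; points are edgeR estimates and bars are ± SE. Slc16a3 (1.06) and Pgam1 (0.59) are drawn in red as higher and Ldhb (-0.60) in blue as lower, while the widest bars belong to Pfkfb3, Pfkfb4 and Aldoc.

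The read count of a gene is uncertain where other genes carry the same sequence, and glycolysis has some of the best-known cases. Processed pseudogenes are reverse-transcribed copies of an mRNA set back into the genome. Every stretch of 50 bases in the GENCODE M21 coding transcripts of the 36 genes was looked up in the transcripts of all other genes. For Gapdh, 58.4% of these stretches also occurred elsewhere, in 222 other genes, 213 of them processed pseudogenes. The 100 bases below come from the reading frame of the main Gapdh transcript (gene on the minus strand of chromosome 6, 125161715 to 125166467, GRCm38). The capitals mark a run of 50 bases that is identical in 84 other genes. They are shown because a read lying within the capitals cannot be placed with certainty by its own sequence.
Gapdh: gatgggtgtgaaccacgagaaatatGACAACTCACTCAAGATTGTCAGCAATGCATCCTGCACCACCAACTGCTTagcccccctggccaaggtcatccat

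The Gapdh entry held 1264 counts over the 6 libraries (46 to 289 each), while 89 genes that shared at least 100 of its stretches held 28340. The largest of these were the processed pseudogenes Gm12070 with 12060 counts, Gm5559 with 5323 and Gm13394 with 4963. Gapdh encodes glyceraldehyde-3-phosphate dehydrogenase, an enzyme often used as a loading control, and its own entry ranked only 26th of 36 by control level per kilobase of exon (4.2 ± 0.569 CPM per kb), far below Aldoa and Pkm. Its entry read 19.9, 17.1 and 15.2 CPM in controls and 15.2, 15.4 and 15.2 CPM in knockouts (log2 fold change -0.19 ± 0.15, adjusted p = 0.499). Summed with those 89 genes it read 375.9, 276.5 and 379.4 CPM in controls and 398.4, 380.7 and 382.6 CPM in knockouts (0.17 ± 0.15, adjusted p = 0.539). The sign thus turned with the summing, and Gapdh passed the threshold neither way.

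In 10 of the 36 genes at least 1 other gene shared 100 or more stretches. The enolase gene Eno1 had 7850 counts of its own and 12650 in copies, most of them in the pseudogene Gm4735 (9676) and in Eno1b (2743), a second gene annotated as coding. The phosphoglycerate kinase gene Pgk1 had 4823 of its own and 3124 in copies, and the carrier gene Mpc1 had 1341 and 1837. In the remaining 6 the copies held the smaller number: 1679 against 9826 in Pgam1, 655 against 3516 in Ldhb, 3711 against 35037 in Pkm, 2596 against 16683 in Gpi1, 521 against 4805 in Pdhb and 155 against 10246 in Ldha. Slc16a3 and Pdk2 shared no stretch with another gene. Summing the copies left the same 3 genes past the threshold (beside 3.46% of all genes), and Gapdh was the only gene of the 10 whose fold change turned its sign.

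**Figure D2:**
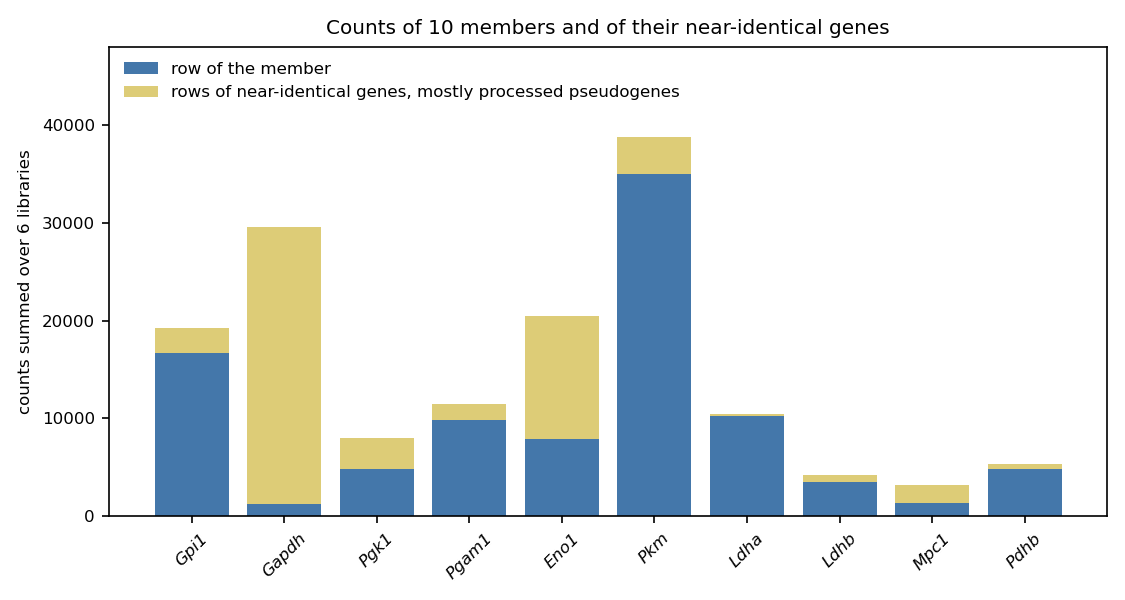
Counts summed over the 6 libraries (vertical axis) for the 10 genes with near-identical copies; blue is the gene's own entry and yellow the entries that share at least 100 stretches of 50 bases with it. Gapdh is nearly all yellow (1264 own counts against 28340), Eno1 and Mpc1 hold more counts in copies than of their own, and Pkm and Ldha are nearly all blue.

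Among the genes past the threshold, a lactate exporter gave the largest fold change. Slc16a3 (ENSMUSG00000025161; GRCm38 chromosome 11, 120948480 to 120960868) encodes MCT4, the transporter typical of cells that release lactate. Its level was 21.5, 17.4 and 20.8 CPM in controls and 44.5, 45.6 and 36.0 CPM in knockouts. The lowest knockout library lay well above the highest control, and the mean went from 19.9 ± 2.18 to 42.1 ± 5.24 CPM (log2 fold change 1.06 ± 0.15, adjusted p = 0.0220). Slc16a1, which encodes MCT1, the widespread transporter that works in either direction, read 8.66, 11.1 and 14.7 CPM in controls and 18, 16.9 and 17.8 CPM in knockouts. The groups did not overlap, yet Slc16a1 missed the threshold (0.61 ± 0.21, adjusted p = 0.146). By summed FPKM of the pair, Slc16a3 made up 47.2% ± 7.44 in controls and 54.6% ± 3.65 in knockouts, and these shares overlapped (exact two-sided permutation test, p = 0.3). Per kilobase of exon the share was 59.4% ± 7.07 and 66.4% ± 3.30, so whether Slc16a3 is the lesser or the greater of the pair in controls depends on the length used.

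MCT proteins need a partner to reach the cell surface. Bsg (basigin), the partner of MCT1 and MCT4, was at 255.4 ± 22.5 and 286.8 ± 16.5 CPM (log2 fold change 0.17, adjusted p = 0.450). Emb (embigin), the partner preferred by MCT2, was at 80.8 ± 10.4 and 58.8 ± 8.30 CPM (-0.45, adjusted p = 0.136). Slc16a7, the gene of MCT2, a high-affinity transporter known for taking up pyruvate and lactate, is not among the 36 but rose. It read 16.9, 26.3 and 17.5 CPM in controls and 41.9, 51.8 and 60.0 CPM in knockouts (1.38 ± 0.21, adjusted p = 0.0270). Slc16a4, another gene of the family outside the 36, overlapped (0.21, adjusted p = 0.861).

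**Figure D3:**
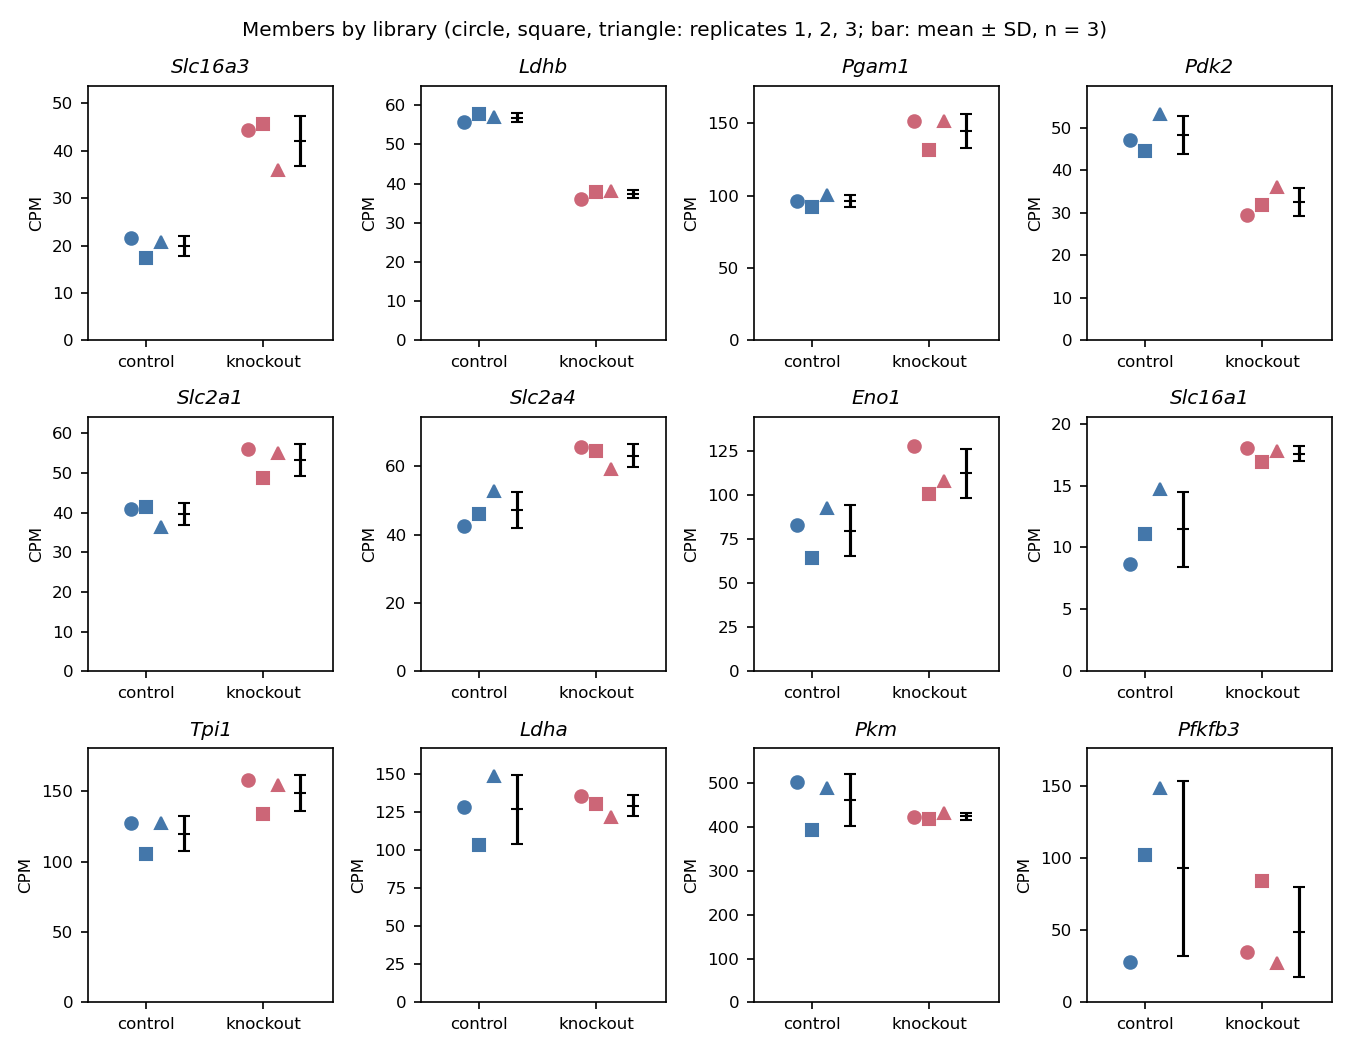
CPM (vertical axis, from 0) in each library of 12 genes of the set; circles, squares and triangles are replicates 1, 2 and 3, blue is control and red is knockout, and black bars give mean ± SD (n = 3). In the top row the knockouts stand apart from the controls for Slc16a3, Ldhb, Pgam1 and Pdk2, whereas Ldha (103.4 to 148.9 CPM over the 6 libraries) and Pkm overlap and Pfkfb3 spreads within each group.

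Sequence just upstream of the genes that passed is printed to show where a motif of hypoxia-responsive promoters occurs. The core of the hypoxia response element was searched as ACGTG or GCGTG on either strand, in the 250 bases before the RefSeq transcription start (build GRCm38.p6). Capitals mark the matches, and each line runs 5′ to 3′ on the strand of its gene. The Slc16a3 window is chr11:120948817-120949066 on the plus strand, and it lies within the listed span of the gene because the start used by RefSeq is downstream of the first start. The Pgam1 window is chr19:41911621-41911870 on the plus strand, and the Ldhb window is chr6:142507958-142508207 on the minus strand.
Slc16a3: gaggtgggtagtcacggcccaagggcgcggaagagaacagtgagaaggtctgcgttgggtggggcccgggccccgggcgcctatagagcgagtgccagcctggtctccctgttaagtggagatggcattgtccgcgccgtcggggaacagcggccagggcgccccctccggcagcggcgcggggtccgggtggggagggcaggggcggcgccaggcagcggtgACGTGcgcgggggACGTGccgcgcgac
Pgam1: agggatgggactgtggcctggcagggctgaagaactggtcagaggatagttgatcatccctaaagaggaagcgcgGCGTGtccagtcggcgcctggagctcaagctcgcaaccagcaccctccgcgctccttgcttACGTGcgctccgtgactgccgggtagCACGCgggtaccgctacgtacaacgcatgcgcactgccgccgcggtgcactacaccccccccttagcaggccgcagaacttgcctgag
Ldhb: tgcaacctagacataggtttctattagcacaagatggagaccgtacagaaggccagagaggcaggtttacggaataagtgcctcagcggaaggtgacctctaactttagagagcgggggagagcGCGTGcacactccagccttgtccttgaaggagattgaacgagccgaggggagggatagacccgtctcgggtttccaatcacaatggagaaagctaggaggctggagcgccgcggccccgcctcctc

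The Slc16a3 window held 2 cores, the Pgam1 window 3 and the Ldhb window 1, so the gene that fell also has a match. Promoter entries were found for 34 of the 36 genes (54 windows in all), and 40 of the 54 windows (74.1%) held a core. The same was true of 54.3% of 13917 windows of tested genes and 38.6% of all 32851 windows. The E-box CACGTG, which contains the first core on both strands, occurred in 11.1%, 8.09% and 6.02% of these windows, and the GC box GGGCGG in 48.1%, 55.9% and 32.7%. A match describes these letters only and shows no binding.

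Uptake comes first in the path. Slc2a1 (GLUT1, the general transporter) read 40.8, 41.5 and 36.5 CPM in controls and 56.1, 48.7 and 55.0 CPM in knockouts (log2 fold change 0.43 ± 0.12, adjusted p = 0.0891). Slc2a4 (GLUT4, the insulin-responsive transporter of muscle and fat) read 42.6, 46.0 and 52.8 CPM in controls and 65.5, 64.4 and 59.3 CPM in knockouts (0.42 ± 0.12, adjusted p = 0.104). In both the groups did not overlap, and neither passed the threshold. Slc2a3 (GLUT3, the high-affinity transporter of neurons) was low and overlapped, at 6.67 ± 1.46 and 7.40 ± 1.17 CPM. GLUT1 made up 47.3% ± 4.35 of the summed FPKM of the 3 transporters in controls and 47.6% ± 2.75 in knockouts. Of the 5 uptake and monocarboxylate transporter genes, all had a positive fold change (median 0.43), 4 did not overlap and 1 was called, beside 48.7%, 31.8% and 3.45% of all genes. These 5 were joined from the first and the later step of the path after their values were seen, so their counts are no test against all genes.

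Hexokinase traps glucose in the cell by phosphorylation. Hk2, the inducible form of muscle and fat, read 58.7, 60.8 and 86.4 CPM in controls and 80.6, 103.9 and 84.2 CPM in knockouts (log2 fold change 0.38 ± 0.18, adjusted p = 0.270). Hk1, the housekeeping form, read 81.0, 86.8 and 84.3 CPM in controls and 95.1, 65.0 and 54.4 CPM in knockouts (-0.23 ± 0.20, adjusted p = 0.531). Both pairs of groups overlapped. Hk2 made up 59.1% ± 5 of the hexokinase FPKM in controls and 69.5% ± 7.80 in knockouts (exact two-sided permutation test, p = 0.2). The isomerase gene Gpi1 was at 205.4 ± 25.9 and 216.4 ± 14.7 CPM (0.07).

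Phosphofructokinase commits the sugar to glycolysis. Its platelet-type subunit gene Pfkp read 303.5, 278.8 and 246 CPM in controls and 227.9, 255.2 and 253.2 CPM in knockouts. The muscle-type Pfkm read 89.5, 76.0 and 87.7 CPM in controls and 76.4, 78.2 and 85.9 CPM in knockouts, and the liver-type Pfkl 63.2, 50.8 and 61.3 CPM and 67.5, 61.4 and 66.8 CPM. All 3 overlapped, with adjusted p of 0.465, 0.732 and 0.502. Per kilobase of exon the order was different, with Pfkm first (25.3 ± 2.19 CPM per kb in controls), then Pfkp (20.6 ± 2.15) and Pfkl (8.75 ± 0.998), and the control values of the 3 genes did not overlap. The Pfkl share of the FPKM of the 3 subunits was 17.3%, 16% and 18.5% in controls and 21.8%, 19.2% and 19.8% in knockouts. The groups thus did not overlap for the share although they did for the level (exact two-sided permutation test, p = 0.1, adjusted p = 0.3). Pfkp shares 748 exon bases with Pitrm1 on the other strand, so with a strand setting that is not given its reads cannot be fully assigned.

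The bifunctional enzymes encoded by Pfkfb1 to Pfkfb4 make and remove the signal metabolite that activates phosphofructokinase. Pfkfb3, the form with the strongest kinase activity, read 28.3, 102.3 and 148.4 CPM in controls and 34.9, 84.4 and 27.4 CPM in knockouts. That is a 5.42-fold range over the 6 libraries with high and low values in both groups, and the fold change had a wide error (log2 fold change -0.92 ± 0.69, adjusted p = 0.473). Pfkfb4 likewise spread 5.85-fold: controls read 8.80, 10.8 and 4.14 CPM, and knockout replicate 1 read 24.2 CPM against 7.53 and 8.02 CPM in the other knockouts (0.81 ± 0.57, adjusted p = 0.444). Pfkfb1 (5.62 ± 1.58 and 4.70 ± 0.368 CPM, -0.20) and Pfkfb2 (15.5 ± 1.99 and 13.1 ± 1.47 CPM, -0.23) were low and their groups overlapped.

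Aldolase splits the sugar into 3-carbon pieces. Aldoa, the main aldolase, was the highest of the 36 per kilobase of exon (130.5 ± 18.2 CPM per kb in controls) and hardly differed in CPM, at 440.7, 343.7 and 355.1 in controls and 404.8, 359.3 and 367.7 in knockouts (log2 fold change -0.01 ± 0.14). Aldoc, the brain form, stayed near the detection limit with 87 counts in all, at 0.481, 1.48 and 0.436 CPM in controls and 1.70, 1.06 and 1.75 CPM in knockouts (1.28 ± 0.53, adjusted p = 0.206). Aldoc never exceeded 0.497% of aldolase FPKM. The triosephosphate isomerase gene Tpi1 read 127.5, 105.3 and 127.2 CPM in controls and 157.8, 134.0 and 154.3 CPM in knockouts. Its groups did not overlap, but it missed the threshold (0.31 ± 0.13, adjusted p = 0.218). Pgk1, which makes the first ATP of the payoff phase, was at 61.1 ± 3.15 and 61.7 ± 5.57 CPM (0.01 ± 0.12).

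Phosphoglycerate mutase moves the phosphate group along the 3-carbon intermediate ahead of enolase. Pgam1 (ENSMUSG00000011752; chromosome 19, 41911923 to 41918660), its non-muscle form, read 96.2, 92.0 and 100.8 CPM in controls and 151.9, 131.3 and 151.3 CPM in knockouts. No library of one group reached the other, and the mean rose from 96.3 ± 4.40 to 144.8 ± 11.7 CPM (log2 fold change 0.59 ± 0.12, adjusted p = 0.0431). Summed with its 2 copies Pgam1 gave 0.56 ± 0.12 (adjusted p = 0.0462). The muscle form Pgam2 had 7, 0 and 16 counts in controls and 2, 10 and 14 in knockouts, too few to be tested, and Pgam1 made up at least 96.3% of the pair's FPKM in each library.

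Enolase comes next. Eno1, the form found in most tissues, read 82.8, 64.5 and 92.5 CPM in controls and 128.0, 100.8 and 108.1 CPM in knockouts, without overlap (log2 fold change 0.48 ± 0.16, adjusted p = 0.143). Summed with its copies the groups still did not differ past the threshold (217.2 ± 57.2 and 281.0 ± 25.5 CPM, adjusted p = 0.327), and control replicate 3 (264.9 CPM) then lay just above knockout replicate 3 (264.5 CPM). The neuronal form Eno2 (-0.21) and the muscle form Eno3 (-0.15) were lower in mean and not called. The Eno1 share of enolase FPKM was 55.0%, 49.9% and 60.2% in controls and 69.4%, 62.8% and 65.4% in knockouts, without overlap (exact two-sided permutation test, p = 0.1, adjusted p = 0.3).

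Pkm encodes both pyruvate kinases M1 and M2, which differ by 1 exon and cannot be separated in a table of genes. It read 501.9, 391.9 and 487.7 CPM in controls and 422.0, 417.4 and 431.4 CPM in knockouts (log2 fold change -0.12 ± 0.13, adjusted p = 0.623). The knockouts lay inside the control range, and Pkm ranked second of the 36 per kilobase of exon (92.1 ± 12 CPM per kb in controls). It shares 767 exon bases with Gm49759 on the same strand.

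Lactate dehydrogenase is built from the products of Ldha and Ldhb, and 1 of the 2 passed the test. Ldhb (ENSMUSG00000030246; chromosome 6, 142490249 to 142507957), the heart-type subunit, whose enzyme is generally held to favour the oxidation of lactate, read 55.7, 57.8 and 57.0 CPM in controls and 36.1, 37.8 and 38.2 CPM in knockouts. Both groups were tight and far apart, and the mean fell from 56.8 ± 1.09 to 37.3 ± 1.11 CPM (log2 fold change -0.60 ± 0.10, adjusted p = 0.0325). Ldha, the muscle-type subunit tied to lactate production, read 128.4, 103.4 and 148.9 CPM in controls and 135.6, 130.7 and 121.9 CPM in knockouts (0.02 ± 0.15, adjusted p = 0.949). Ldhb with its 1 copy gave -0.56 ± 0.10 (adjusted p = 0.0387).

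As a share of the subunit pair, Ldhb lay below every control in all 3 knockouts. Ldhb made up 54.7%, 60.9% and 51.6% of lactate dehydrogenase FPKM in controls and 42.5%, 44.6% and 46.6% in knockouts. The mean share differed by -11.2 percentage points, from 55.7% ± 4.73 to 44.6% ± 2.02. With 3 libraries against 3 the exact two-sided permutation test cannot go below 0.1, which it reached here (0.3 after adjustment over the 12 shares tested). FPKM and exon length give different absolute shares: per kilobase of exon the Ldhb share was 48.8% ± 4.81 and 37.9% ± 1.92.

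**Figure D4:**
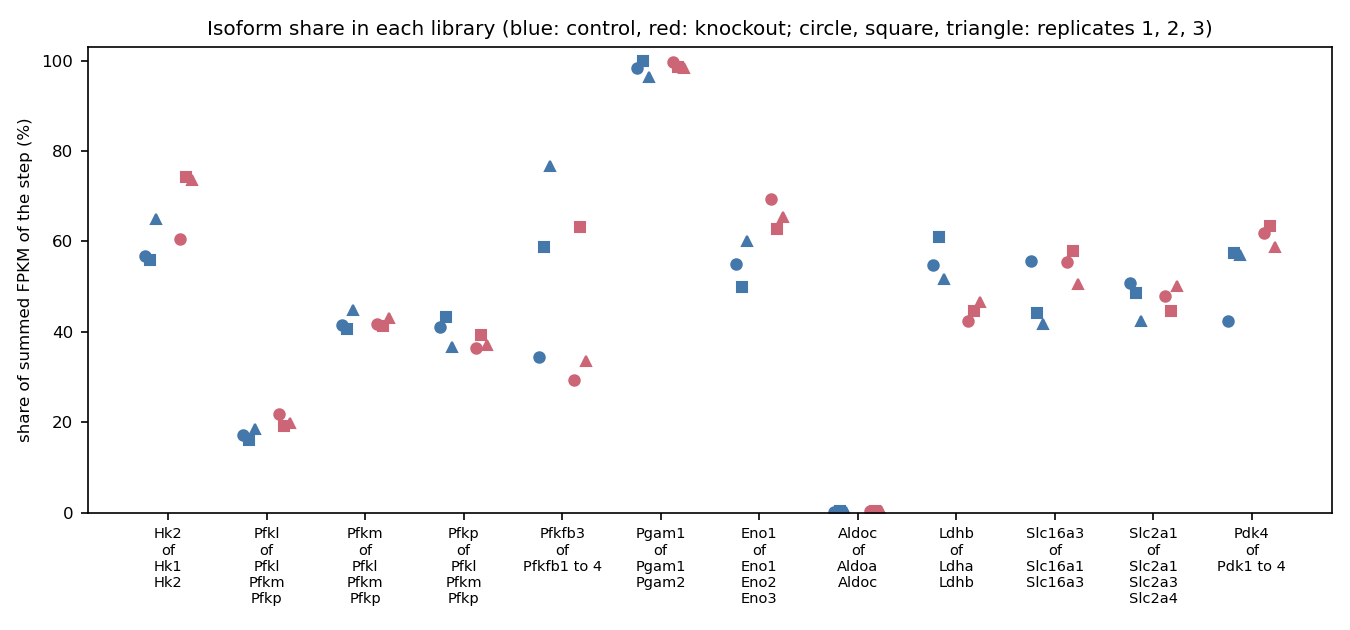
Share of 1 isoform in the summed FPKM of its step (vertical axis, percent) for the 12 shares tested; blue is control, red is knockout, and circles, squares and triangles are replicates 1, 2 and 3. The 4 shares without overlap are Ldhb, lower in the knockouts, and Pfkl, Eno1 and Pdk4, higher in the knockouts. By level, 31.8% of all genes had no overlap either. Each of the 4 had an adjusted p of 0.3 (exact two-sided permutation test). The Pfkfb3 share is the one that spreads most within a group.

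Entry of pyruvate into the mitochondrion was described by 8 genes, of which 0 passed the edgeR test, beside 3.45% of all genes. The kinase gene Pdk2 was the 1 gene of the 8 with an unadjusted p below 0.05 (12.5%, beside 22.7% of all genes). DESeq2 and limma each called Pdk2 and none of the other genes. The carrier genes Mpc1 (log2 fold change -0.54 ± 0.30) and Mpc2 (-0.22 ± 0.16), and the pyruvate dehydrogenase subunit genes Pdha1 (-0.33 ± 0.15, adjusted p = 0.241) and Pdhb (-0.30 ± 0.15, adjusted p = 0.291), were all 4 negative. In each the groups overlapped. Pdha1, the catalytic alpha subunit, read 184.3, 154.6 and 211.3 CPM in controls and 130.6, 153.4 and 154.7 CPM in knockouts. Control replicate 2 gave the lowest control value for all 4 genes and, for Mpc1, 10.8 CPM beside 24.1 and 22.9 in the other controls. Without that library all 4 had an unadjusted p below 0.05 and 0 passed the threshold (adjusted p from 0.0745 to 0.154). That fit gave lower p more widely. In it 15 of the 36 genes had an unadjusted p below 0.05, against 10 of 35 with all libraries (28.6%, beside 22.7% of all genes). The share of all genes with an unadjusted p below 0.05 was not taken for that fit. The 15 genes and the 4 above thus have no background to be set beside. At the threshold that fit called 5.51% of all genes, against 3.45% with all libraries.

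The kinases that shut pyruvate dehydrogenase off differed among themselves. Pdk2 (chromosome 11, 95026258 to 95041354), the most widely expressed, read 47.2, 44.5 and 53.1 CPM in controls and 29.4, 31.9 and 36.0 CPM in knockouts. The groups did not overlap, and the adjusted p of 0.0585 narrowly missed the threshold (log2 fold change -0.58 ± 0.13). It passed with DESeq2 (adjusted p = 0.0108), with limma (0.0475) and without control replicate 2 (0.0437). Pdk4, the kinase induced by fasting and fatty acids, read 59.7, 104.6 and 113.5 CPM in controls and 100.3, 113.5 and 103.1 CPM in knockouts (0.19 ± 0.23, adjusted p = 0.656). Its share of the FPKM of the 4 kinases went from 52.3% ± 8.56 to 61.3% ± 2.41 without overlap (exact two-sided permutation test, p = 0.1, adjusted p = 0.3). The gap was narrow, between 57.5% in the highest control and 58.7% in the lowest knockout. Pdk1, a known hypoxia target, was at 21.3 ± 4.34 and 17.0 ± 1.68 CPM (-0.35), and Pdk3 was at 18.7 ± 1.36 and 21 ± 1.5 CPM (0.18).

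The 3 calls were not kept in every fit that left out 1 library. Leaving out control replicate 1 or any 1 knockout library ended all 3, with adjusted p of 0.105, 0.132, 0.126 and 0.051 for Slc16a3, of 0.141, 0.199, 0.144 and 0.111 for Pgam1, and of 0.114, 0.177, 0.151 and 0.0890 for Ldhb (without control replicate 1 and knockout replicates 1, 2 and 3 in turn). Over all genes these fits called only 4, 6, 8 and 19 higher and 3, 6, 5 and 14 lower, in the same order. With all 6 libraries the numbers were 306 and 251, so the loss was not particular to the 3 genes. Without control replicate 3 only Slc16a3 remained past the threshold (0.0460, against 0.0688 for Pgam1 and 0.0634 for Ldhb). That fit called 157 of all genes higher and 123 lower. Without control replicate 2, the library that stood apart, all 3 passed and Pdk2 joined them, 4 of 36 genes (11.1%) beside 5.51% of all genes. DESeq2 and limma called the same 4 genes of 35 (11.4%), beside 9.3% and 4.73% of all genes. The fold changes moved little meanwhile, between 1 and 1.17 for Slc16a3, 0.56 and 0.66 for Pgam1, and -0.63 and -0.57 for Ldhb.

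Cells other than smooth muscle also express these genes, and some of their markers moved with the groups. Brown fat markers were lower: of 6 tested, Ucp1, Cox8b and Cox7a1 fell and 0 rose, and all 6 fold changes were negative. The summed level of the list was 282.1 to 404.5 CPM in controls and 153.6 to 206.7 CPM in knockouts. The largest part of that sum was Prdm16 (187 ± 54.4 and 108.8 ± 25.7 CPM), whose groups overlapped (-0.78, adjusted p = 0.123). Cidea overlapped too (-0.34, adjusted p = 0.369). DESeq2 also called Dio2 and Prdm16, both lower. Of 5 tested skeletal muscle markers Ckm rose, from 3.19 ± 0.518 to 51.0 ± 10.7 CPM, and the summed list went from 5.56 to 15.1 CPM in controls to 48.0 to 70.5 CPM in knockouts. Nearly all of that sum was Ckm, while the defining fibre genes Acta1 (1.42 ± 1.49 and 0.742 ± 0.348 CPM) and Mylpf (0.733 ± 0.649 and 1.17 ± 0.365 CPM) were near 0 in both groups. Of 8 endothelial markers 0 were called by edgeR, DESeq2 or limma (1 had an unadjusted p below 0.05, in DESeq2), with sums of 770.0 to 951.8 CPM in controls and 667.6 to 1574 CPM in knockouts. Of 5 erythroid markers 0 were called, with sums of 323.3 to 970.7 and 191.3 to 983.0 CPM. Of 6 neuronal and Schwann cell markers Uchl1 rose (45.1 ± 11 to 99.7 ± 13.8 CPM) and 0 fell. Of 8 cardiac markers the actin gene Actc1 rose (3.37 ± 2.02 to 17.7 ± 4.06 CPM) and 0 fell, with Tnnt2 (-0.49, adjusted p = 0.164) and Ryr2 (-1.05, adjusted p = 0.299) negative. The part of these cell types in Slc16a3, Pgam1, Ldhb and Slc2a4 was not tested.

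Neighbouring pathways were read from lists drawn up beside the 36 genes. Among 24 further tested genes of glucose and pyruvate metabolism, Slc16a7 rose and 0 fell, with the transporter gene Slc2a8 at log2 fold change -0.47 (adjusted p = 0.0906). Of 8 gluconeogenesis and glycerol phosphate genes 0 were called by edgeR, DESeq2 or limma, although the 4 with an unadjusted p below 0.05 were all negative: Pck1 (-0.56), Gpd1 (-0.60), Gpd1l (-0.44) and Gpd2 (-0.40). Of 8 pentose phosphate genes 0 were called and 0 had an unadjusted p below 0.05 with any of the 3 tools, and the groups of all 8 overlapped. Pgd (59.9 ± 8.06 and 70.3 ± 6.62 CPM) had the smallest p. Of 16 citric acid cycle genes 0 were called by edgeR or limma and 2 had an unadjusted p below 0.05. The citrate synthase gene Cs came closest (198.2 ± 15.8 and 150 ± 10.6 CPM, -0.40, adjusted p = 0.106) and was called by DESeq2 (0.0306).

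The malate-aspartate shuttle moves the reducing equivalents of glycolysis into the mitochondrion, the alternative to passing them on to lactate. Of its 6 tested genes 1 changed: Mdh1 (chromosome 11, 21556692 to 21572367), the cytosolic malate dehydrogenase, fell. It read 85.6, 81.9 and 101.1 CPM in controls and 49.3, 34.6 and 46.6 CPM in knockouts (log2 fold change -1.05 ± 0.16, adjusted p = 0.0290). The highest knockout was far below the lowest control, and 52 exon bases are shared with Wdpcp on the other strand. Its mitochondrial counterpart Mdh2 was at 105.1 ± 15.2 and 113.3 ± 6.85 CPM (0.11).

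Of 24 tested regulators of glycolytic genes 1 rose and 0 fell. Hif3a, a hypoxia-inducible factor subunit that can dampen the response of the others, read 4.61, 5.19 and 9.89 CPM in controls and 21.4, 32.1 and 21.9 CPM in knockouts (log2 fold change 1.89 ± 0.32, adjusted p = 0.0334). Hif1a itself was at 123.2 ± 11.5 and 117.0 ± 7.01 CPM (-0.07), Epas1 at 358.2 ± 35.4 and 388.3 ± 80.3 CPM (0.12), and Sp1, a known OGT substrate, at 103.8 ± 12.6 and 69.8 ± 8.01 CPM (-0.57, adjusted p = 0.0710; 0.0148 with DESeq2). Of 18 genes induced by hypoxia outside glycolysis 2 rose (11.1%, beside 1.9% of all genes) and 0 fell. These were Ndrg1 (180.9, 182.8 and 184.5 to 267.2, 264.6 and 253.7 CPM, 0.52, adjusted p = 0.0446) and the mitochondrial adenylate kinase gene Ak4 (6.60, 4.08 and 7.34 to 13.5, 12.9 and 13.7 CPM, 1.09, adjusted p = 0.0430). The median log2 fold change of the 18 was 0.02, and 9 were positive and 9 negative. Ddit4, a stress-induced inhibitor of mTORC1, read 14.4, 29.7 and 50.3 CPM in controls and 84.0, 101.9 and 88.9 CPM in knockouts, a wide gap that missed the threshold (1.54 ± 0.42, adjusted p = 0.0951) and passed with DESeq2 (0.00203).

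Like the calls among the 36 genes, those outside were lost in some fits that left out 1 library. Over all genes, the fits without control replicate 1 or any 1 knockout library called only 4 to 19 higher and 3 to 14 lower. Without control replicate 1 or any 1 knockout library each of Slc16a7, Mdh1, Hif3a, Ndrg1 and Ak4 missed the threshold, with adjusted p from 0.0779 to 0.131, 0.0780 to 0.126, 0.0780 to 0.142, 0.105 to 0.202 and 0.107 to 0.190. Without control replicate 2, Hif3a missed it too (0.0574), and without control replicate 3 Hif3a (0.0225) was the only one of the 5 to pass.

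**Figure D5:**
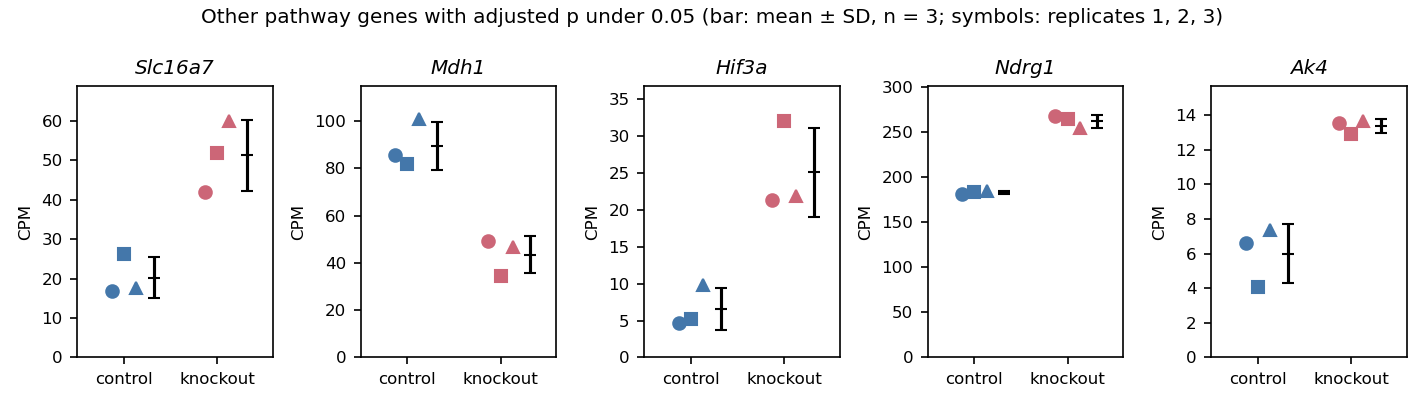
CPM (vertical axis, from 0) in each library of the 5 genes outside the set of 36 that passed the test in the pathway lists; symbols are replicates 1, 2 and 3, blue is control, red is knockout, and black bars give mean ± SD (n = 3). Slc16a7, Hif3a, Ndrg1 and Ak4 lie higher in all 3 knockouts than in any control, and Mdh1 lies lower.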

How the data were processed

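Per the file headers, the deposited table listed each gene with its symbol, position, read count and FPKM in the 6 libraries. The counts were whole numbers as the authors deposited them. Per the submitters' processing notes, CASAVA 1.8, HISAT2, SAMtools 1.3.1 and edgeR were used. Which counting program, annotation and strand setting were used, and how reads with several matches were treated, is not given in the sources used here. This bears on every gene with pseudogenes or overlapping neighbours. The notes name build GRCm39, yet 54907 of 55227 gene identifiers shared with GENCODE M21 (99.4%) had that annotation's GRCm38 positions, so positions are given as GRCm38. The authors' deposited FPKM could be recomputed as the count over the library total and over 1 length per gene, to a relative 1.4e-05 over 7705 genes. That length matched the sum of all distinct annotated exons, overlapping ones counted repeatedly, within 1% for 97.7% of 14785 genes. FPKM therefore understates genes with many alternative exons, and levels of different genes are compared per kilobase of merged exons instead. FPKM served for isoform shares within a step. No numeric column was left without a sample.

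Counts were analysed in R 4.3.3 with edgeR 4.0.16 (filterByExpr, TMM scaling, glmQLFit and glmQLFTest). CPM uses the scaled library size, and standard errors were derived from the log2 fold change and its F statistic. Steps were tested on simulated data. Alternatives were DESeq2 1.42.0, limma 3.58.1 (voom), RLE size factors, scaling without mitochondrial genes, no count filter, a replicate block and leaving out each library. Summing near-identical copies and shares per exon length were added after the data were seen. Isoform shares were compared by exact two-sided permutation in Python 3.11.15 with scipy 1.17.1. Counting depth limits the rare transcripts of control replicate 2 most. Promoter sequences are from RefSeq (GRCm38.p6); Slc2a3 and Slc2a4 had no entry. Values in every library are given for genes past the threshold, the 12 with the smallest p and Hk1, Pfkl, Pfkm, Pfkp, Pfkfb3, Aldoa, Gapdh, Pgam2 (as counts), Pkm, Ldha and Pdk4, and from each pathway list for genes past the threshold, with up to 3 more by p. Pfkfb4, Ddit4, Bsg, Emb, Slc16a4, Mdh2, Hif1a, Epas1 and the named markers were given for their role, and the members and lists were chosen with earlier results of these data known.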

Additional observations from a re-analysis of the deposited data

How the results depend on the processing

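All genes called higher and lower numbered 306 and 251 with edgeR, 759 and 742 with DESeq2, 18 and 10 with the replicate block, and 4 to 491 and 3 to 420 when 1 library was left out. Among the 36 genes the calls were 2 higher and 1 lower. They were 2 lower with DESeq2 and with limma (Pdk2 added), 1 higher and 0 lower without a count filter (which called 1.75% of all genes), 0 and 0 with the replicate block (which called 0.173% of all genes), and 0 to 2 in either direction when 1 library was left out. Under the block the adjusted p of Slc16a3, Ldhb and Pgam1 was 0.0798, 0.118 and 0.122. The labels do not say whether equal replicate numbers pair the libraries. In the sample descriptions each library has a number of its own, so equal numbers occur only in the titles. Deviations of same-numbered libraries correlated at 0.0524, 0.0856 and -0.0601 across genes, and those of differently numbered libraries at -0.0981 to 0.0972. With values so close to each other, this check can neither show nor exclude pairing. The cause of these shifts in the calls was not tested. No call or direction of the 36 changed with RLE size factors or with scaling without mitochondrial genes. Directions turned only where the change was small or uneven: Aldoa (log2 fold change 0.0013 with limma, 0.04 without a filter), Gapdh (0.17 with copies summed) and the Pfkm share (0.317 percentage points from counts not divided by length). With 1 library left out the log2 fold change of these genes of the 36 crossed 0: -0.01 to 0.29 for Slc2a3, -0.34 to 0.00029 for Pfkfb1, -0.07 to 0.10 for Aldoa, -0.05 to 0.08 for Pgk1, -0.09 to 0.15 for Ldha and -0.05 to 0.38 for Pdk4. Outside the 36 several did, among them the pentose phosphate gene Rpe (-0.86 to 0.01). For shares they were -1.09 to 1.03 points for Pfkm, -0.347 to 1.51 for Pgam1 and -2.11 to 2.08 for Slc2a1. Depth limits Pgam2 and Aldoc, which had 49 and 87 counts in all.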

Other observations

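Per kilobase of merged exon the control aorta ranked the genes over a wide range. Each gene was ranked by its own entry, so the rank of genes with many reads in copies is uncertain. In controls Gapdh read 17.4 ± 2.35 CPM alone and 343.9 ± 58.4 CPM summed with its copies. Eno1 read 79.9 ± 14.2 CPM alone and 217.2 ± 57.2 CPM summed. Aldoa (130.5 ± 18.2 CPM per kb) and Pkm (92.1 ± 12) led, followed by Pdha1 (49.1 ± 7.59), Pgam1 (48.6 ± 2.22), Tpi1 (43.6 ± 4.63), Ldha (38.3 ± 6.87) and Ldhb (36.2 ± 0.696). The control values of neighbours from Pdha1 to Ldhb overlapped, except that Pgam1 (46.39 to 50.84) lay just above Tpi1 (38.25 to 46.31). In the knockouts Ldhb was at 23.8 ± 0.708 and Ldha at 39.1 ± 2.10 CPM per kb, so the pair that lay together in controls lay apart. At the low end were the transporter gene Slc16a1 (2.60 ± 0.684), Slc2a3 (0.920 ± 0.201) and Aldoc (0.245 ± 0.181). Slc16a3 was at 3.74 ± 0.410 CPM per kb in controls, near Eno2 (4.03 ± 0.418) and the own entry of Gapdh without its copies (4.2 ± 0.569). In knockouts Slc16a3 was at 7.91 ± 0.986, near Hk1 (8.38 ± 2.48).

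Among markers of other cells in the vessel, 0 of 8 white fat, 0 of 8 macrophage and 0 of 6 fibroblast markers passed with edgeR, DESeq2 or limma, with 2, 0 and 1 at an unadjusted p below 0.05 in edgeR. All 8 macrophage markers had positive fold changes (median 0.36). Their sum was 183.9 to 577.8 CPM in controls and 385.3 to 473.3 CPM in knockouts. Of 6 neuron and Schwann cell markers Uchl1 rose, and the summed list was 56.8 to 78.2 CPM in controls and 120.3 to 133.5 CPM in knockouts. The part of these cells in the values of Slc16a3, Ldhb and Pgam1 was not tested.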
